A study of Mus musculus with 5 samples.

Results

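The mRNAs of the solute carrier (Slc) genes were examined in Surface-seq libraries of EL4 cells. Members were selected on their counts: a protein-coding gene whose symbol is Slc followed by a digit was taken when its counts summed over the 5 libraries reached 100. This gave 163 of the 371 protein-coding Slc genes, out of 55385 genes in the count tables. The 34 members of the Slc25 family, of 47 such genes, were kept apart from the 129 other members, of 324. A choice by symbol also takes in genes that are not carriers themselves, such as Slc9a3r1, a scaffold protein, Slc4a1ap, which is named for a carrier that it binds, and Slc7a6os, which is named for lying opposite Slc7a6.

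Solute carriers are membrane proteins that move amino acids, sugars, nucleotides, metals and other small molecules across the plasma membrane and the membranes of organelles. Most members of the Slc25 family span the inner mitochondrial membrane, where they exchange adenine nucleotides, phosphate, citrate and other metabolites with the cytosol. Dividing lymphoid cells are known for a high demand for glucose and amino acids, which enter through carriers such as Slc2a1 and Slc2a3, Slc1a5, and the paired chains Slc7a5 and Slc3a2.

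EL4 is an established mouse lymphoma cell line that grows in suspension. In Surface-seq, the plasma membrane of the cells is purified and wrapped around polymer particles with its outer face kept outwards, and the RNA that stays with it is sequenced. Libraries A1, A2 and A3 (variation A) were made from all RNA extracted from such particles, from either face of the membrane, while for B1 and B2 (variation B) the 3′ adaptor was joined to RNA exposed on the intact particles, to favour RNA that faces outwards. Both groups come from the same line, with no genotype or treatment that separates them in the labels, so the comparison is between preparations. They differ in more than the place of labelling: RNA of variation A was isolated with phenol and its ends were repaired with a kinase, while that of variation B was isolated on silane beads and amplified with more RNA input and PCR cycles. Outward-facing RNA and these other steps cannot be told apart here. Nothing in the labels says that the libraries of a variation came from separate cultures, so p-values measure only the spread between these libraries, which may be technical.

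The tables held 2301017, 4502174, 1187117, 21862003 and 22980172 counts in the libraries from A1 to B2. Variation B thus gave 84.9% of all counts, and the summed count that chose the members is mostly a count in variation B. On variation B counts alone 159 of the 163 members reach 100, and on variation A counts alone 59 do. Just inside the threshold, Slc24a3 had 101 counts (2, 1, 0, 54 and 44 in A1, A2, A3, B1 and B2) and Slc15a1 had 117 (6, 10, 3, 49 and 49). Just outside it, Slc26a8 had 90 (2, 1, 0, 33 and 54) and Slc4a4 had 84 (1, 4, 0, 54 and 25). Every member was counted in both variation B libraries, 153 members were counted in all 5 libraries, and 75 had at least 10 counts in each. In A3, the shallowest library, 77 members reached 10 counts, against 163 in B2.

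The labelled cell type was checked against marker genes. All 10 T lymphocyte markers, Thy1 the most counted of them, were counted in every library, with a summed level of 830, 582, 550, 2278 and 2171 counts per 1e6 of library totals (CPM) in the libraries from A1 to B2. Scaled by TMM, edgeR called Cd3e (log2 fold change 1.13) and Cd3g (2.00) of them higher and Trbc2 (-1.17) lower in variation B, all chosen after their values were seen. Markers of B lymphocytes, erythroid cells and fibroblasts were at or near 0: Ms4a1, Hbb-bs, Hbb-bt and Col1a2 had 0 counts in all libraries, as did the hepatocyte marker Alb. Among 4 myeloid markers, with a summed CPM of 0, 2.67, 1.68, 4.53 and 5.79 in the libraries from A1 to B2, Lyz2 was the most counted, with 0 counts in all of variation A, 73 in B1 and 133 in B2. With variation A at a floor of 3 counts per library, Lyz2 was at least 1.04-fold higher in variation B, and it passed the filter on low counts only through variation B. Cd14 had 1 count in A2, 1 in B1 and 0 elsewhere, while Csf1r had 0, 7, 2, 5 and 0 in the libraries from A1 to B2, and Itgam 0, 4, 0, 20 and 0. The part of other cells in the results below was not tested.

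Library A1 stood apart from A2 and A3. Across the 163 members, the correlation of the log2 of TMM-scaled CPM plus 1 was 0.96 between A2 and A3 and 0.97 between B1 and B2, but 0.89 and 0.88 between A1 and the other variation A libraries. A1 was also nearer to variation B (0.86 with each of B1 and B2) than A2 (0.74 and 0.75) and A3 (0.73 and 0.73) were. Genes of a library are not independent and share its depth, so these correlations are given as a description. Counts of calls are therefore given with A1 and, where they move, without it.

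The share of each library's counts that fell on members came first. The 34 Slc25 members held 0.0708% of the A1 counts (0.0674 to 0.0743, the 95% Wilson interval), 0.0595% of A2 (0.0573 to 0.0618) and 0.0541% of A3 (0.0501 to 0.0584). They held 0.124% in B1 (0.122 to 0.125) and 0.125% in B2 (0.123 to 0.126). Both variation B libraries lay above all of variation A, with means of 0.0614% ± 0.00851 (SD, n = 3) and 0.124% ± 0.000851 (SD, n = 2). The reads carry no molecular identifiers, so intervals here and below cover counting error only.

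The 129 other members held 0.423% of the A1 counts (0.414 to 0.431, the 95% Wilson interval), 0.314% of A2 (0.309 to 0.319) and 0.288% of A3 (0.278 to 0.297). Of B1 their share was 1.25% (1.250 to 1.259), and of B2 1.33% (1.32 to 1.33). The variations again did not overlap, with means of 0.341% ± 0.0717 (SD, n = 3) and 1.29% ± 0.0498 (SD, n = 2). The sum that chose the members is mostly a variation B sum, so these differences are a description and were not tested.

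The denominator decided the direction for the Slc25 members. Of protein-coding counts alone, they took 0.180%, 0.263%, 0.246%, 0.194% and 0.193% in the libraries from A1 to B2. Variation B then lay between A1 and the other variation A libraries, and its mean was 0.845 times that of variation A, where of all counts it was 2.02 times. For the other members the direction held: of protein-coding counts they took 1.07%, 1.39% and 1.31% in variation A, against 1.97% and 2.05% in variation B.

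**Figure D1:**
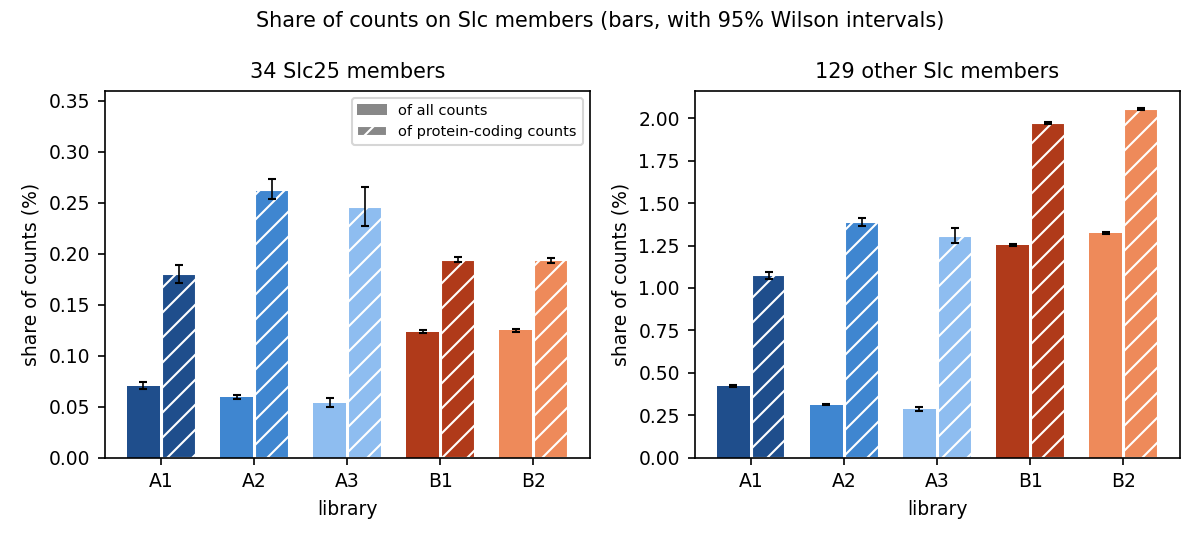
Share of counts (percent, vertical axis from 0) on the 34 Slc25 members (left) and the 129 other Slc members (right) in each library, of all counts (plain bars) and of protein-coding counts (hatched bars), with 95% Wilson intervals as error bars. Plain bars are higher in B1 and B2 than in all of variation A in both panels, while the hatched Slc25 bars of B1 and B2 (0.194% and 0.193%) lie between A1 (0.180%) and A3 (0.246%).

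Levels were compared between genes as CPM on library totals per kilobase of exon. Among the other members, Slc39a6, a zinc importer, had the highest mean over the 5 libraries, with 151, 71.7 and 70.1 CPM per kb in A1 to A3, and 347 and 334 in B1 and B2. Slc2a3, a high-affinity glucose transporter, followed at 92.4, 64.1, 52.8, 338 and 395 in the same order, and Slc7a5, the leucine-carrying chain, at 90.8, 78.2, 80.65, 295 and 270. These were the top 3 other members in every library, though in a different order from library to library. Slc3a2, the partner chain of Slc7a5, came next on the mean and stood at 22.9, 24.9, 26.0, 120 and 96.6 CPM per kb. Its level was below that of Slc7a5 in every library.

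Below them came Slc38a2 and Slc38a1, which carry neutral amino acids into the cell, with means of 49.7 and 36.4 CPM per kb over the 5 libraries. Slc22a3, an organic cation carrier, had a mean of 33.98, and Slc16a1, a lactate and pyruvate carrier, had 31.2. The glutamine carrier Slc1a5 (27.9) and the nucleoside carrier Slc29a1 (27.0) closed the 10 most abundant. Slc2a1, the other glucose transporter followed here, had a mean of 15.2. In counts, Slc2a3 alone took 15.8%, 14.8%, 13.3%, 19.5% and 21.6% of the counts of the other members in the libraries from A1 to B2.

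The most abundant Slc25 members were Slc25a4, Slc25a3 and Slc25a5. Slc25a4 and Slc25a5 exchange ADP and ATP, and Slc25a3 carries phosphate, so these 3 supply the substrates of mitochondrial ATP synthesis. In CPM per kb, Slc25a4 had 40.6, 51.8 and 53.7 in A1 to A3 and 39.8 and 44.1 in B1 and B2, and Slc25a5 had 40.9, 46.8, 29.2, 29.6 and 41.1. Slc25a3 had 34.1, 15.1, 13.7, 62.9 and 66.3, and was first of the Slc25 members in B1 and B2 but ranked 3 in A1 and 4 in A2 and A3. Slc25a39, a glutathione carrier, had a mean of 20.6 over the 5 libraries, Slc25a1, the citrate carrier, 8.00, and Slc25a11, the 2-oxoglutarate carrier, 7.89.

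**Figure D2:**
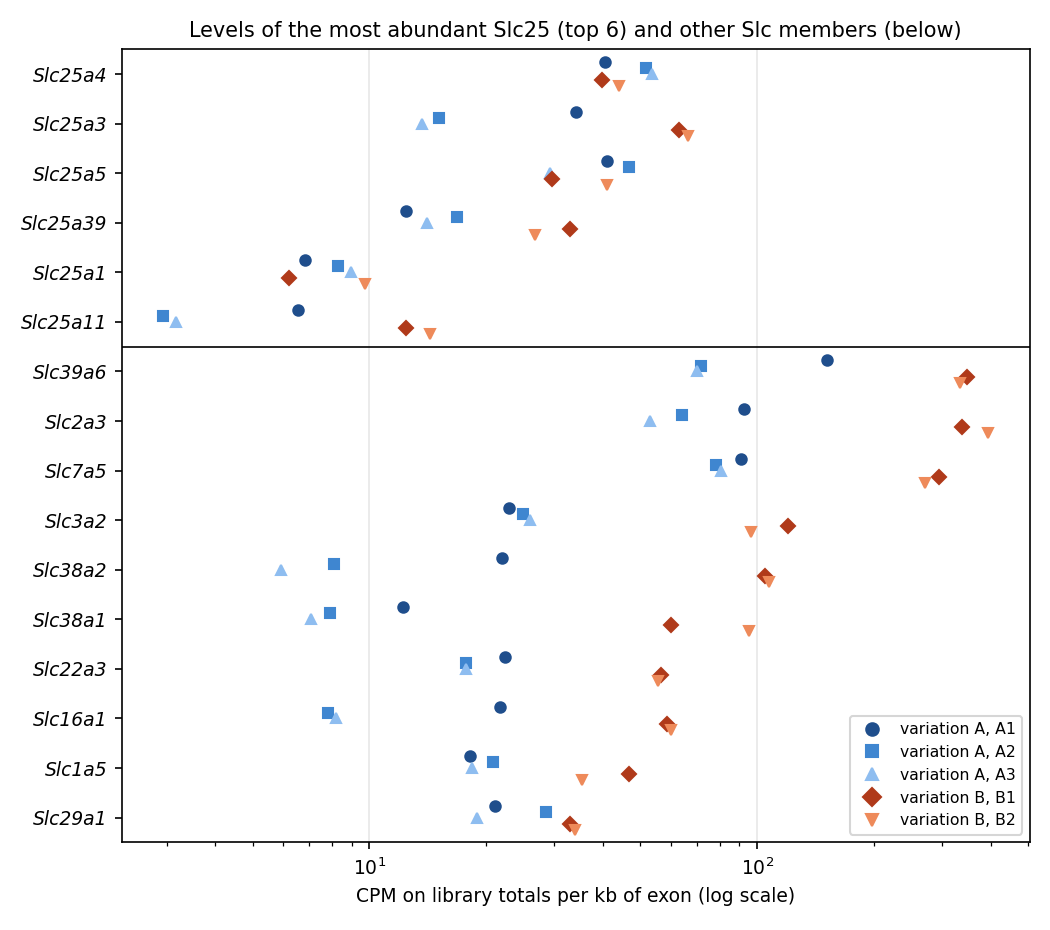
Levels of the 6 most abundant Slc25 members (above the line) and the 10 most abundant other members (below it) as CPM on library totals per kb of exon (horizontal log axis), with a point for each library. Most genes have more CPM on library totals in variation B; Slc39a6, Slc2a3 and Slc7a5 lead in every library, and Slc25a3 is at 62.9 and 66.3 in B1 and B2 against 13.7 to 34.1 in variation A.

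Variation B was compared with variation A by edgeR's quasi-likelihood test on all genes, with library sizes scaled by the trimmed mean of M-values (TMM). A gene was called when it changed over 2-fold with a Benjamini-Hochberg adjusted p under 0.05. The TMM factors were 0.879, 0.573 and 0.570 in A1 to A3, and 1.88 and 1.85 in B1 and B2. All genes had a median log2 fold change of 1.50 with library totals alone, against 0.05 with TMM, so the values below are relative to the bulk of genes. A change in counts of bulk libraries does not tell fewer cells with an mRNA from less of it per cell. The filter on low counts kept 10287 genes, among them 33 Slc25 members and 126 other members. Slc25a47, Slc18a2, Slc24a3 and Slc47a2 did not pass it.

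None of the 33 tested Slc25 members was called higher in variation B and 7 were called lower, while with library totals alone 16 were called higher and 2 lower (55.1% and 2.93% of all genes). Over all genes tested, 11.0% were called higher and 12.4% lower, and over protein-coding genes 10.3% and 12.0%. At an unadjusted p under 0.05 in edgeR's test, 1 Slc25 member was higher and 11 were lower. No share of all genes was counted at the unadjusted p, here and below, so these counts have no background and are no result about the members. DESeq2 called 0 Slc25 members higher and 6 lower, beside 4.48% and 6.77% of its 25327 genes. These are all genes with any count, also those too low for the filter used with edgeR. Such shares are therefore no like background for the members, here and below. The median log2 fold change of the Slc25 members was 0.02, beside 0.05 for all genes, with 17 members above 0 and 16 below. With library totals alone their median was -0.07 relative to that of all genes, against -0.03 with TMM, and for the other members 0.02 against -0.00. Among the 126 other members, 16 were called higher and 16 lower, with a median of 0.04 (0.02 with members at 0 in all of variation A placed at a bound of 3 counts, beside 0.04 for all genes), and with library totals alone 79 were called higher and 1 lower. Library totals alone moved the share of higher calls over all genes from 47.1% to 94.96%, and leaving out A1 or the filter on low counts moved it to 58.1% and 57.9%. Upper-quartile factors, DESeq2 and removal of the length trend lowered it to 39.2%, 39.8% and 42.7%.

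These shares lie near those of all genes, apart from the 0 higher calls of the Slc25 members and their lower calls, which were 7 of 33. Of the 16 members called higher, 6 passed the filter only through variation B (Slc16a5, Slc26a10, Slc33a1, Slc35a1, Slc35e3 and Slc43a1), and of the 23 called lower 3 only through variation A (Slc25a34, Slc8b1 and Slc39a4), so the counts are a description of the tested members and not of all 163. With library totals alone all 16 members called higher kept their call, but only Slc25a10, Slc25a34 and Slc39a4 of those called lower. On CPM scaled by TMM library sizes, both variation B libraries lay above all 3 of variation A for 45 members (5 Slc25 and 40 others) and below them for 44 (12 and 32). Over all genes tested, 31.2% lay above and 26.7% below. The variations did not overlap for any of the 39 called members.

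The counts of calls moved when a library was left out, for members and for all genes alike. Only Slc7a11 and Slc39a4 of the 39 called members kept their call with each library left out in turn. Slc39a4 passed the filter on low counts only through variation A, so its kept call is no separate result. Without A1, 2 Slc25 members were called higher and 9 lower, and 26 other members were called higher and 27 lower, beside 20.8% and 15.0% of all genes. Of the calls made with A1, 6 of 7 Slc25 calls and 31 of 32 other calls were also made without it. The Slc25 members called higher without A1 were Slc25a14 (10, 3, 1, 330 and 193 counts in A1, A2, A3, B1 and B2) and Slc25a46 (30, 9, 2, 624 and 604), both chosen after their values were seen. With or without A1, Slc25a14 passed the filter on low counts only through variation B, so its call is no separate result. A1 had the highest variation A value for 12 of the 16 members called higher and the lowest for 21 of the 23 called lower, beside 73.6% and 75.8% for all genes called. Without A2, 0 Slc25 members were called higher and 2 lower, and 2 and 2 others, beside 3.46% and 3.64% of all genes. Without A3 the counts were 0 and 3, and 2 and 1 (3.57% and 3.86% of all genes). Without B1 they were 0 and 1, and 1 and 1 (1.92% and 2.30%), and without B2 0 and 0, and 1 and 1 (1.55% and 1.32%).

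**Figure D3:**
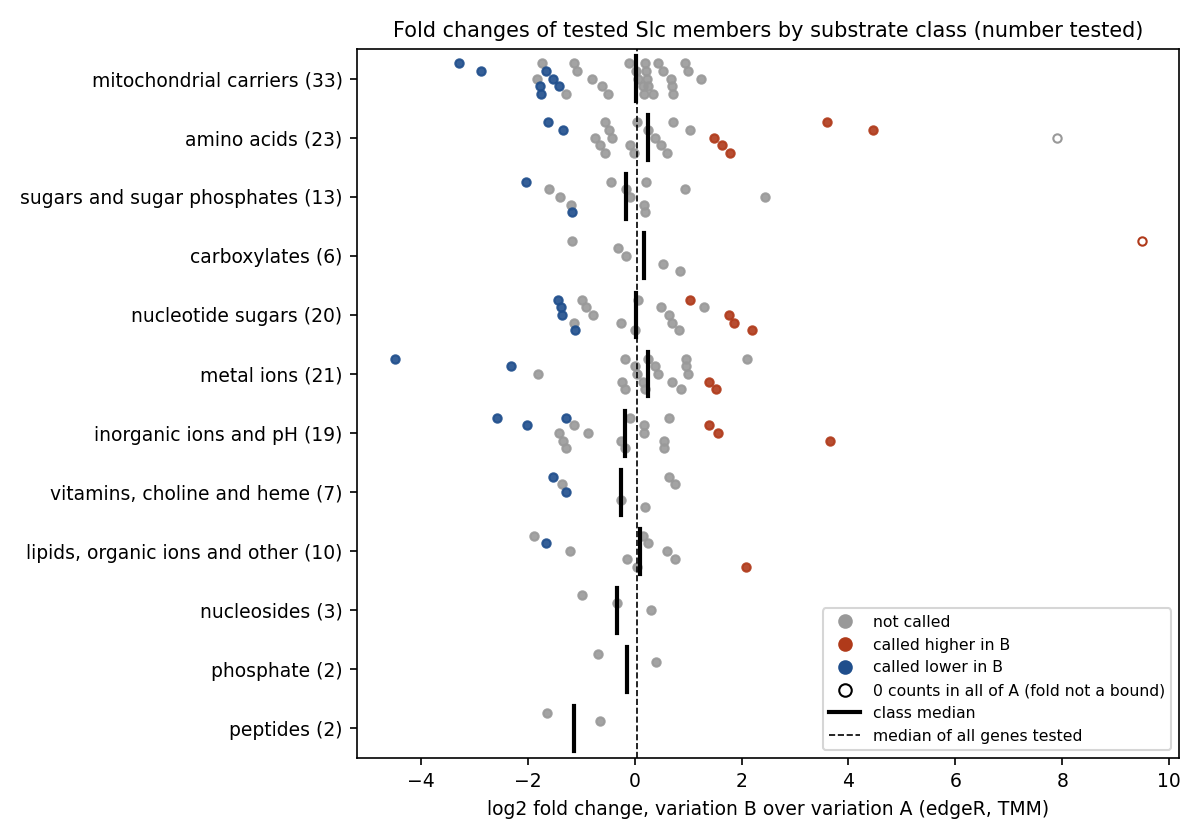
Log2 fold change of variation B over variation A (edgeR with TMM, horizontal axis) of the tested Slc members by substrate class, with the number tested in brackets, red and blue points for members called higher and lower, grey points for the rest, and a bar at the class median. The 7 called mitochondrial carriers are all lower in variation B (with library totals alone 16 are called higher and 2 lower). Of the amino acid carriers 5 are called higher and 2 lower. Of all genes 11.0% are called higher and 12.4% lower (55.1% and 2.93% with library totals alone). The open points have 0 counts in all of variation A, so their place is set by the fit and is no bound.

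Of the 7 Slc25 members called lower (with library totals alone 16 are called higher and 2 lower), Slc25a4 (ENSMUSG00000031633.4, chromosome 8 of GRCm38 from 46206797 to 46211284, minus strand) had 220, 549 and 150 counts in A1 to A3, and 2045 and 2386 in B1 and B2. On TMM library sizes that was 109, 214 and 222 CPM against 49.9 and 56.5. All 3 variation A libraries were higher than both of variation B, with A1 the lowest of the 3. The log2 fold change of Slc25a4 was -1.77 (standard error 0.38, adjusted p = 0.0160, quasi-likelihood test of edgeR, Benjamini-Hochberg adjustment). Again with edgeR and Benjamini-Hochberg adjustment, the test did not call Slc25a4 without A2, A3, B1 or B2, with adjusted p of 0.0670, 0.0671, 0.140 and 0.142. Its log2 fold change with library totals alone was -0.213 and not called (adjusted p = 0.584, edgeR with Benjamini-Hochberg adjustment).

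Slc25a5 (chromosome X from 36795651 to 36798807, plus strand) had 155, 347 and 57 counts in variation A and 1066 and 1553 in variation B. This gave 76.9, 135 and 84.4 TMM-scaled CPM against 26.0 and 36.8, again with no overlap. Its log2 fold change was -1.66 (standard error 0.36, adjusted p = 0.0159, edgeR as before, Benjamini-Hochberg adjustment). It was lost as a call without A2, B1 or B2 (adjusted p = 0.0673, 0.156 and 0.113, edgeR with Benjamini-Hochberg adjustment), and with library totals alone it was at -0.145 (0.742, same adjustment). Of its longest transcript, 72.3% matched transcripts of genes elsewhere in the genome at 95% identity or more, processed pseudogenes among them. The counting left out reads with several alignments, so the level of Slc25a5 is uncertain. Slc25a4 had no such match.

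Slc25a10, the mitochondrial dicarboxylate carrier, had 25, 58 and 18 counts in variation A and 138 and 88 in variation B, or 12.4, 22.6 and 26.7 TMM-scaled CPM against 3.37 and 2.08. The libraries of variation A were all higher, and its log2 fold change was -2.87 (standard error 0.47, adjusted p = 0.00635, edgeR with Benjamini-Hochberg adjustment). The call was lost only without B2 among the 5 libraries (adjusted p = 0.0906, same test and Benjamini-Hochberg adjustment in edgeR). Slc25a1, the citrate carrier, had 34, 81 and 23 counts against 293 and 484 and a log2 fold change of -1.53 (adjusted p = 0.0326, edgeR with Benjamini-Hochberg adjustment). Without A1 the Slc25a1 call remained, and it was lost without any other library (adjusted p from 0.117 to 0.229, edgeR with Benjamini-Hochberg adjustment), while library totals alone put it at -0.00377. Library totals alone put Slc25a10 at -1.34. The other 3 were chosen after their values were seen. Slc25a34, an orphan carrier (17, 29 and 9 counts against 40 and 51), Slc25a23, a carrier of ATP-magnesium and phosphate (43, 79 and 20 against 390 and 448), and Slc25a26, which carries S-adenosylmethionine (12, 14 and 5 against 59 and 91), had log2 fold changes of -3.29, -1.43 and -1.76. Slc25a26 was not called with any 1 of the 5 libraries left out (adjusted p from 0.0704 to 0.229, edgeR with Benjamini-Hochberg adjustment) or by DESeq2 (0.0560). Slc25a23 was lost without A2, A3, B1 or B2 (0.0782 to 0.167, same adjustment), and Slc25a34 without B1 or B2 (0.0503 and 0.0509). Library totals alone put Slc25a34, Slc25a23 and Slc25a26 at -1.80, 0.0773 and -0.298, of which only Slc25a34 was called. Slc25a34 passed the filter on low counts only through variation A, where it is high, so its call is no separate result.

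The phosphate carrier Slc25a3 was not called. Its TMM-scaled CPM was 216, 147 and 133 in A1 to A3 and 186 and 200 in B1 and B2, so the variations overlapped through A1. The log2 fold change was 0.22 (standard error 0.32, adjusted p = 0.630, edgeR with Benjamini-Hochberg adjustment), but 1.63 and called with library totals alone (adjusted p = 0.0259, same edgeR test and Benjamini-Hochberg adjustment). Its share of the Slc25 counts was 26.7%, 14.1% and 14.0% in variation A, against 28.2% and 29.4% in variation B. That of Slc25a5 was 9.52%, 12.96% and 8.88% against 3.94% and 5.41%. Slc25a39 and Slc25a11 were not called either (log2 fold changes -0.50 and 0.24, and 1.04 and 1.66 with library totals alone, both called), and the 26 tested Slc25 members that were not called lay between -1.83 for Slc25a38 and 1.24 for Slc25a14, both named for these values.

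Genes of mitochondrial import and of the outer and inner membrane channels (the Tomm, Timm and Vdac genes, Mpc1, Mpc2 and Mcu) were read beside them. Of 31 genes 24 were tested, of which 1 was called higher and 4 lower (11.0% and 12.4% of all genes), with a median log2 fold change of -0.35. Without A1, 2 were called higher and 4 lower, beside 20.8% and 15.0% of all genes. The 4 called with A1 were Mpc1, a subunit of the pyruvate carrier (log2 fold change -4.08), Tomm5 (-2.55), Tomm40 (-1.43) and Timm50 (-1.06). For 2 of them the variation B libraries differed widely, with 68 and 18 counts of Mpc1 and 118 and 21 of Tomm5 in B1 and B2. Both passed the filter on low counts only through variation A, where they are high, so their calls are no separate result. Tomm7 was the gene called higher, at 2.04, with 91, 27 and 8 counts in A1 to A3 and 3778 and 4197 in B1 and B2. These 5 genes were chosen after their values were seen.

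Amino acid carriers held the largest called rise that was counted in every library. Slc7a11, the cystine-glutamate exchanger (ENSMUSG00000027737.10, chromosome 3 from 49892526 to 50443614, minus strand), had 17, 13 and 3 counts in A1 to A3, and 5723 and 5732 in B1 and B2. Scaled by TMM library sizes, its CPM was 8.43, 5.06 and 4.44 in variation A and 140 and 136 in variation B. The variation B libraries lay close together and far above all of variation A. The log2 fold change was 4.47 (standard error 0.35, adjusted p = 0.000427, quasi-likelihood test of edgeR, Benjamini-Hochberg adjustment). By CPM per kb, Slc7a11 ranked 111th to 118th of the 129 other members in the variation A libraries and 18th and 17th in B1 and B2. Over 16 alternatives its log2 fold change lay between 3.93 and 5.89, and its adjusted p was at most 0.00626 (edgeR or DESeq2, Benjamini-Hochberg adjustment).

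The promoter of Slc7a11 is shown because this member rose most among those called and counted in every library. The sequence is from RefSeq (GRCm38.p6), chr3:50443614-50443863, minus strand, and runs 5′ to 3′ over the 250 bases before the start that RefSeq gives, which lies 1 base inside the gene as placed above.
Slc7a11: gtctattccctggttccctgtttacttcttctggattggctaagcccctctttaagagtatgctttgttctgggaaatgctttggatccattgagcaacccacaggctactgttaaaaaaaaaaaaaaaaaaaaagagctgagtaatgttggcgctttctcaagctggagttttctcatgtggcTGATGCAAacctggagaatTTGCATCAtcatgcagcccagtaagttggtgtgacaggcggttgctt
The capitals mark the letters TGATGNAA, the core of the amino acid response element, searched on both strands. This window holds 2 matches that do not overlap, with the printed strand matching from 66 bases before the start and the other strand from 47. Of 32851 promoter windows of the same length, 3.45% hold a match. Promoters were found for 129 of the 163 members, and 5 of them hold a match: Slc7a11, Slc7a7, Slc9a9, Slc26a10 and Slc50a1. Of the 14 members called higher that have a window, 3 hold a match, and of the 17 called lower 0 do. Of the 4 amino acid carriers called higher that have a window, only Slc7a11 holds a match, and the other matches among members called higher are in Slc26a10 and Slc9a9, of the inorganic ion families. The search was chosen after the fold changes were seen, and a match is a description of the letters, not a binding site.

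Slc38a2 and Slc38a1, which carry glutamine and other small neutral amino acids, were both called higher. Slc38a2 had 447, 322 and 62 counts in A1 to A3 and 20290 and 21826 in B1 and B2, or 222, 125 and 91.8 TMM-scaled CPM against 495 and 517. Variation B was higher in both libraries, and A1 was the highest of variation A. The log2 fold change of Slc38a2 was 1.78 (standard error 0.40, adjusted p = 0.0175, edgeR with Benjamini-Hochberg adjustment), and 2.31 without A1. Slc38a1 had 483, 615 and 145 counts against 22529 and 37637. Its TMM-scaled CPM was 239.5, 239.2 and 215 in variation A and 550 and 891 in variation B, so here it was the variation B libraries that differed. Its log2 fold change was 1.64 (standard error 0.34, adjusted p = 0.0129, edgeR with Benjamini-Hochberg adjustment). Both calls were lost without A2, A3, B1 or B2, with adjusted p from 0.0686 to 0.132 for Slc38a2 and from 0.0570 to 0.181 for Slc38a1 (edgeR, Benjamini-Hochberg adjustment). With the trend of counts with exon length removed, Slc38a1 had a log2 fold change of 0.95 and an adjusted p of 0.0753 (edgeR, Benjamini-Hochberg adjustment) and was not called.

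Slc43a1, a carrier of branched-chain and other large neutral amino acids, had 0, 3 and 0 counts in variation A and 205 and 358 in variation B. On summed counts over TMM library sizes the ratio was 11.9, with a 95% counting interval of 4.04 to 57.7. It became a member and passed the filter only through variation B, so its call is no separate result, and it was lost without A3, B1 or B2 (adjusted p = 0.0705, 0.0736 and 0.167, edgeR with Benjamini-Hochberg adjustment). The fifth was Slc1a4, a carrier of alanine, serine and cysteine, chosen after its values were seen. It had 69, 65 and 9 counts against 3028 and 2894 and a log2 fold change of 1.49 (adjusted p = 0.0224, edgeR with Benjamini-Hochberg adjustment). Its call was lost without A2, A3, B1 or B2 (adjusted p from 0.0632 to 0.144, edgeR with Benjamini-Hochberg adjustment).

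In all, 5 of 23 tested amino acid carriers were called higher and 2 lower, with and without A1, with a median log2 fold change of 0.26. Of all genes 11.0% were called higher and 12.4% lower with A1, and 20.8% and 15.0% without it. This median is 0.04 when Slc38a11, which had 0 counts in all of variation A and 82 and 57 in variation B, is placed at its bound of 3 counts in each variation A library. The members called lower were Slc38a10 and Slc6a13. Slc38a10 had 207, 448 and 98 counts in variation A and 2032 and 1755 in variation B, which gave 103, 174 and 145 TMM-scaled CPM against 49.6 and 41.5. Its libraries did not overlap, and its log2 fold change was -1.63 (standard error 0.33, adjusted p = 0.0129, edgeR with Benjamini-Hochberg adjustment). Without A2, A3, B1 or B2 the adjusted p of Slc38a10 was 0.0643, 0.0560, 0.105 and 0.165 (edgeR with Benjamini-Hochberg adjustment), and with library totals alone its log2 fold change was -0.0980 (0.799, same adjustment). Slc6a13, a carrier of GABA and taurine named for its call, had a log2 fold change of -1.33 (0.156 with library totals alone) and was lost without the same libraries (adjusted p from 0.0624 to 0.178, edgeR with Benjamini-Hochberg adjustment).

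The carriers known for the bulk supply of dividing lymphoid cells did not pass the threshold with TMM. Slc7a5 had 384, 508 and 526 TMM-scaled CPM in A1 to A3 and 584 and 545 in B1 and B2, and variation B was above by a small margin. Its log2 fold change was 0.26 (standard error 0.33, adjusted p = 0.582, edgeR with Benjamini-Hochberg adjustment). Slc3a2 had 92.2, 154 and 161 against 226 and 186, with no overlap, and a log2 fold change of 0.61 (standard error 0.33, adjusted p = 0.208, edgeR with Benjamini-Hochberg adjustment). Slc1a5 had 86.8, 152 and 135 against 104 and 80.3, with overlap, and a log2 fold change of -0.43 (adjusted p = 0.358, same edgeR test and Benjamini-Hochberg adjustment). These 3 were called higher with library totals alone, with Slc1a5 reversed to 1.10 (adjusted p = 0.0254) and Slc7a5 and Slc3a2 at 1.77 and 2.14 (0.00812 and 0.00591, edgeR, Benjamini-Hochberg adjustment). A p that misses the threshold does not show that the levels are equal. Slc7a1, a carrier of cationic amino acids named for its 9688 and 9483 counts in B1 and B2, had a log2 fold change of 0.49.

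Slc2a3 was the most counted member, with 1541, 2090 and 454 counts in A1 to A3 and 53580 and 65774 in B1 and B2. Its TMM-scaled CPM was 764, 813 and 672 against 1308 and 1557, with both variation B libraries above all of variation A. The log2 fold change was 0.93 (standard error 0.36, adjusted p = 0.0869, edgeR with Benjamini-Hochberg adjustment) and was not called. Without A1 it was 1.07 and called (adjusted p = 0.000620, edgeR with Benjamini-Hochberg adjustment), and with library totals alone 2.40 and called. Slc2a1 had 31.2, 56.8 and 41.5 TMM-scaled CPM against 52.3 and 46.4, which overlap, and a log2 fold change of 0.19 (standard error 0.33, adjusted p = 0.692, edgeR with Benjamini-Hochberg adjustment), but 1.72 and called with library totals alone. Of the 13 tested members of the sugar and sugar phosphate families, 0 were called higher and 2 lower, and without A1 2 and 3. Over all genes these shares were 11.0% and 12.4%, and without A1 20.8% and 15.0%. At an unadjusted p under 0.05 in edgeR's test 2 were higher, Slc2a3 and the sugar carrier Slc5a9, and 5 lower, with no share of all genes beside them. DESeq2 also called 0 of this class higher and 2 lower, beside 4.48% and 6.77% of all 25327 genes with any count. Slc2a3 and Slc5a9 were called higher without A1, but Slc5a9, named for this, had only 2, 1 and 0 counts in variation A against 119 and 136. Slc5a9 passed the filter on low counts only through variation B, so its call is no separate result. The members called lower were Slc37a4, which carries glucose-6-phosphate into the endoplasmic reticulum, and Slc37a1. Slc37a4 had 27, 48 and 14 counts against 235 and 115 and a log2 fold change of -2.03 (standard error 0.46, adjusted p = 0.0180, edgeR with Benjamini-Hochberg adjustment). Leaving out A2, A3, B1 or B2 took Slc37a4 to an adjusted p of 0.0674, 0.0689, 0.0527 or 0.166 (edgeR, Benjamini-Hochberg adjustment), and library totals alone put it at -0.523 (0.326, same adjustment). Slc37a1, named for its call, was then at 0.335 and not called.

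Lactate and pyruvate carriers of the Slc16 family were read with their partner proteins, the immunoglobulin-like chains Bsg and Emb that bring them to the cell surface. Slc16a1 had 110, 60.7 and 63.7 TMM-scaled CPM in A1 to A3 and 138 and 144 in B1 and B2. Both variation B libraries were higher, and A1 was the nearest to them. Its log2 fold change was 0.85 (standard error 0.33, adjusted p = 0.0948, edgeR with Benjamini-Hochberg adjustment), and without A1 it was 1.31 and called (adjusted p = 9.54e-05, edgeR with Benjamini-Hochberg adjustment), as with library totals alone (2.23). Bsg had 86, 137 and 25 counts in variation A and 18987 and 20287 in variation B, with a log2 fold change of 3.40 (standard error 0.31, adjusted p = 0.000644, edgeR with Benjamini-Hochberg adjustment). Emb had 37, 6 and 1 counts against 889 and 907 and was not called (log2 fold change 1.40, adjusted p = 0.178, edgeR with Benjamini-Hochberg adjustment), but without A1 it was called higher at 3.44 (adjusted p = 5.25e-05, same edgeR test and Benjamini-Hochberg adjustment). Slc16a5 had 0 counts in all of variation A and 132 and 292 in variation B. With variation A at a floor of 3 counts per library it was at least 2.14-fold higher. It is the 1 call among the 6 tested members of this class, but it became a member and passed the filter only through variation B, so that call is no separate result. Without A1, 2 members of the class were called higher and 0 lower, while of all genes 11.0% were called higher and 12.4% lower with A1, and 20.8% and 15.0% without it. The call of Bsg held with each library left out in turn.

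**Figure D4:**
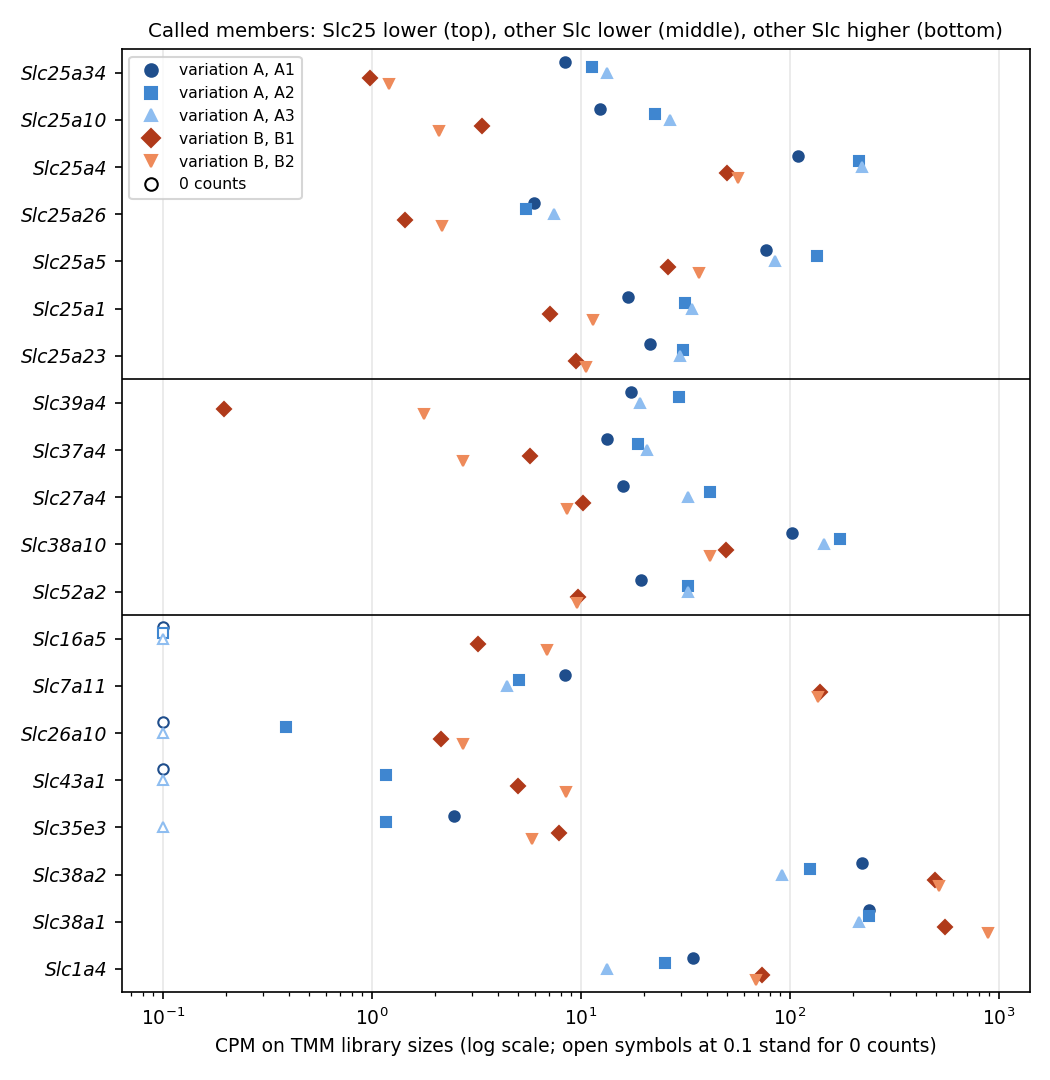
CPM on TMM library sizes (horizontal log axis) in each library. The top shows the 7 Slc25 members called lower, and the middle 5 of the other members called lower. The bottom shows the 5 amino acid carriers and 3 other members called higher. With library totals alone 16 Slc25 members are called higher and 2 lower, beside 55.1% and 2.93% of all genes. Blue symbols are variation A, red and orange symbols are variation B, and open symbols stand for 0 counts; a lack of overlap was part of the rule that chose most of these genes, and Slc7a11 is at 140 and 136 in B1 and B2 against 4.44 to 8.43 in variation A.

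Members of the Slc35 family were called in both directions. This family holds the nucleotide sugar carriers, which load the Golgi apparatus and endoplasmic reticulum with the substrates of glycosylation, but not every member need be one. Of 20 tested members, 4 were called higher and 4 lower, with a median log2 fold change of 0.03, and without A1 7 and 5. Of all genes 11.0% and 12.4% were called with A1, and 20.8% and 15.0% without it. Slc35e3 had 5, 3 and 0 counts in A1 to A3 and 321 and 246 in B1 and B2, and passed the filter only through variation B, so its place among the calls is no separate result. It was not called by DESeq2 (adjusted p = 0.0616, Benjamini-Hochberg adjustment), and 26.9% of its transcript matched genes elsewhere, so its level is uncertain. Without A2, A3, B1 or B2 it was not called (adjusted p = 0.168, 0.106, 0.214 and 0.163, edgeR with Benjamini-Hochberg adjustment). The rest were chosen after their values were seen. Slc35a1, the CMP-sialic acid carrier, had 24, 8 and 2 counts against 956 and 865 and a log2 fold change of 1.77 (2.94 without A1) but passed the filter only through variation B, and Slc35f2 and Slc35d1 had 1.86 and 1.04. Slc35e1, Slc35a4, Slc35c2 and Slc35b2, the last a carrier of the sulfate donor PAPS, had -1.44, -1.39, -1.36 and -1.12, but 0.115, 0.154, 0.152 and 0.369 with library totals alone. All of these calls were lost without A2, A3, B1 or B2, with adjusted p from 0.124 to 0.192 for Slc35a1 (edgeR with Benjamini-Hochberg adjustment). For Slc35a4, 34.2% of the transcript matched a gene elsewhere, and its level is uncertain too.

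Among 21 tested metal ion carriers 2 were called higher and 2 lower, with a median log2 fold change of 0.25. Without A1 these were 5 and 3, with the zinc carriers Slc30a4, Slc30a5 and Slc30a7 added as higher and Slc39a1 as lower, all named for these calls. Over all genes the shares went from 11.0% higher and 12.4% lower to 20.8% and 15.0%. Of the Slc39a1 transcript 41.2% matches a pseudogene, so its level is uncertain. Slc39a4, a zinc importer of the plasma membrane, had 35, 76 and 13 counts in A1 to A3 but 8 in B1 and 75 in B2. Its TMM-scaled CPM was 17.4, 29.6 and 19.3 against 0.195 and 1.78, so the variation B libraries were both far below variation A and far from each other. The log2 fold change was -4.50 (standard error 0.83, adjusted p = 0.00939, edgeR with Benjamini-Hochberg adjustment). Slc39a4 passed the filter on low counts only through variation A, where it is high, so its call is no separate result. It was called in all 16 alternatives run, but its log2 fold change ranged from -2.99 to -6.77. Slc39a4 stood at -3.65 without B1 and -6.77 without B2. Its relative Slc39a6, the most abundant of the other members, had 702, 511 and 502 TMM-scaled CPM against 754 and 740, and a log2 fold change of 0.39 (standard error 0.34, adjusted p = 0.425, edgeR with Benjamini-Hochberg adjustment), but 1.81 and called with library totals alone. Slc30a9 (log2 fold change 1.51) and the copper importer Slc31a1 (1.39, with 21, 16 and 8 counts against 887 and 1090) were called higher, and Slc41a3 (-2.32, but -0.806 and not called with library totals alone) was called lower. These 3 were chosen after their values were seen, and their calls were lost without A2, A3, B1 or B2 (adjusted p from 0.0648 to 0.168 for Slc30a9, 0.0657 to 0.227 for Slc31a1 and 0.0611 to 0.135 for Slc41a3, edgeR with Benjamini-Hochberg adjustment).

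Of 19 tested members of the families for inorganic ions and pH, 3 were called higher and 3 lower, with a median log2 fold change of -0.19, and without A1 2 and 7 of 20, beside 11.0% and 12.4% of all genes, and 20.8% and 15.0% without A1. Slc26a10 had 0, 1 and 0 counts in variation A and 88 and 115 in variation B, a ratio of 12.8 with a 95% counting interval of 2.28 to 509. It became a member and passed the filter only through variation B, so its place among the calls is no separate result, and it was lost with any 1 of the 5 libraries left out (adjusted p from 0.0680 to 0.206, edgeR with Benjamini-Hochberg adjustment). Of its exon length, 15.8% is shared with B4galnt1 on the other strand. The remaining calls, named for them, were Slc9a9 (log2 fold change 1.55) and Slc4a1ap (1.38), higher, and Slc8b1, the sodium-calcium exchanger of mitochondria (-2.58), Slc26a11 (-2.02) and Slc9a5 (-1.29), lower, and all were lost without A2, A3, B1 or B2 (adjusted p of at least 0.0553, edgeR with Benjamini-Hochberg adjustment). The last 3 were at -1.01, -0.538 and 0.216 with library totals alone and not called. Slc8b1 passed the filter on low counts only through variation A, so its place among the calls is no separate result.

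The smaller classes held few calls, where of all genes 11.0% were called higher and 12.4% lower, and 20.8% and 15.0% without A1. In the vitamin, choline and heme families, 0 of 7 tested members were called higher and 2 lower (edgeR): the riboflavin carrier Slc52a2 (39, 84 and 22 counts against 398 and 404, log2 fold change -1.53, adjusted p = 0.0198 with Benjamini-Hochberg adjustment) and the choline carrier Slc44a2 (-1.29), named for its call. DESeq2 also called 0 of this class higher and 2 lower, beside 4.48% and 6.77% of all 25327 genes with any count. At an unadjusted p under 0.05 in edgeR 1 of the class was higher and 3 lower, again with no share of all genes beside them. Slc52a2 and Slc44a2 were at -0.00924 and 0.204 with library totals alone and not called. Slc52a2 was lost without A2, A3, B1 or B2 (adjusted p from 0.0788 to 0.173, edgeR with Benjamini-Hochberg adjustment). Without A1, 1 of this class was called higher and 3 lower. Among 10 tested carriers of lipids, organic ions and other substrates, 1 was called higher and 1 lower, and without A1 2 and 3 of 12. Slc18a2, named for its higher call without A1, had 3, 0 and 0 counts in variation A and 48 and 131 in variation B. It was tested only without A1 and passed the filter only through variation B, so its call is no separate result. Slc27a4, a fatty acid transport protein, had 32, 107 and 22 counts against 421 and 364 and a log2 fold change of -1.66 (standard error 0.44, adjusted p = 0.0290, edgeR with Benjamini-Hochberg adjustment). Without the same libraries Slc27a4 had an adjusted p from 0.0946 to 0.210 (edgeR, Benjamini-Hochberg adjustment), and library totals alone put it at -0.102 (0.816, same adjustment). Slc33a1, an acetyl-CoA carrier named for its call, had 24, 8 and 1 counts against 1034 and 1142 and a log2 fold change of 2.09 (3.37 without A1), and passed the filter only through variation B. Its call was lost without A2, A3, B1 or B2 (adjusted p from 0.0873 to 0.172, edgeR with Benjamini-Hochberg adjustment), and 32.0% of its exon length is shared with Gm26850 on the other strand, so its level is uncertain. Slc22a3, the most abundant of this class, had 116, 140 and 141 TMM-scaled CPM against 136.2 and 136.0 and a log2 fold change of 0.04, but 1.54 and called with library totals alone. Of the nucleoside carriers 3 were tested, of the phosphate carriers 2 and of the peptide carriers 2, and edgeR and DESeq2 called none. Slc29a1 was nearest (96.2, 200 and 133 against 70.3 and 73.9 TMM-scaled CPM, log2 fold change -0.99, adjusted p = 0.0775 in edgeR with Benjamini-Hochberg adjustment), and without A1 it was called lower at -1.12 (adjusted p = 0.000957, edgeR with Benjamini-Hochberg adjustment), while library totals alone reversed it to 0.549 (adjusted p = 0.189, edgeR, same adjustment).

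Other transporter families of the membrane were read in the same way. Of 50 ATP-binding cassette (ABC) transporter genes 24 were tested, of which edgeR called 0 higher and 4 lower, with a median log2 fold change of -0.04. At an unadjusted p under 0.05 in edgeR's test 4 were higher and 7 lower, with no share of all genes beside them. DESeq2 also called 0 ABC genes higher and 3 lower, beside 4.48% and 6.77% of all 25327 genes with any count. Without A1, 6 were called higher and 5 lower, beside 20.8% and 15.0% of all genes. The 4 called with A1 were Abcb9 (-1.94), Abcb10 (-1.72), Abca7 (-1.26) and the sterol exporter Abcg1 (-1.004). Of 22 P-type ATPase pump genes 12 were tested, of which 3 were called higher and 4 lower, with a median of -0.00, and without A1 5 and 4. Over all genes tested with A1, 11.0% were called higher and 12.4% lower, and without A1 20.8% and 15.0%, which applies to the ABC genes too. Atp13a3 had 507, 253 and 46 counts in variation A and 54088 and 45091 in variation B (log2 fold change 3.09), while its relative Atp13a2 had 558, 1235 and 306 against 3675 and 3387 (-2.25). The pumps named here and the 4 ABC transporters were chosen after their values were seen.

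Properties that the choice did not use were compared as a description. The median exon length was 4685 bases for the Slc25 members and 4885 for the other members, beside 4756 for the protein-coding genes tested. It was 4950 for the 16 members called higher and 3463 for the 23 called lower. Across the 159 tested members the log2 fold change had a correlation of 0.17 with log10 exon length, and across 9522 protein-coding genes 0.14. These are correlations across genes within the same libraries, and the part of length in the calls was checked by removing the trend (0 and 7 Slc25 calls, and 16 and 17 others, beside 9.86% higher and 13.2% lower of all genes, of which 14 and 15 were among those of the fit without this step). Exons of 52 members overlap another gene, and for 14 members over 20% of the exon length or of the transcript is shared with another gene or a copy. Of those 14, the called members are Slc25a5, Slc33a1, Slc35a4 and Slc35e3.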

How the data were processed

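Surface-seq libraries of EL4 cells were read from 3 count tables of variation A and 2 of variation B. The deposited values are raw counts: the authors used Trimmomatic 0.36 for trimming and STAR 2.7.3a for alignment to GRCm38, and made the counts per gene with featureCounts 1.6.4 on GENCODE M24. Counting ignored the strand, and reads that aligned to several places or over several genes were not counted. Gene symbols and types were taken from GENCODE M21, so genes without a match there have no symbol.

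Members and lists were chosen with earlier results of these data known. Substrate classes were set by family symbol, so a member may carry other substrates or, as with Slc4a1ap, be no carrier. Genes were filtered with filterByExpr, scaled by TMM and tested with edgeR 4.0.16 (quasi-likelihood) in R 4.3.3, with p adjusted over all genes tested by Benjamini-Hochberg. The standard error of a log2 fold change is approximate, derived from the test statistic. CPM on TMM library sizes uses the tested total times its factor, and CPM per kb uses library totals and exon length. A floor of 3 counts in a library is 1.30, 0.666, 2.53, 0.137 and 0.131 CPM on library totals in A1, A2, A3, B1 and B2. On TMM library sizes, which the bounds above use, it is 1.49, 1.17, 4.44, 0.0732 and 0.0710. Floors and intervals cover counting error only. Transcripts were matched to those of other genes with blastn 2.17.0 (95% identity, 50 bases or more). Tables were made in Python 3.11.15 with scipy 1.17.1.

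Genes named by rule were the 6 Slc25 and 10 other members with the highest mean CPM per kb; the 3 Slc25 and 5 other members with the largest called rises and falls, not overlapping and with at least 10 counts in each library of the higher variation; and Slc3a2, Slc7a5, Slc1a5, Slc2a1, Slc2a3, Slc16a1, Slc25a3, Slc25a4 and Slc25a5. Of the genes next to the threshold only values are given. Alternatives were RLE and upper-quartile factors, library totals alone, DESeq2 1.42.0, no filter, a replicate block, gene sets without rRNA and mitochondrial-genome genes or of protein-coding genes only, a minimum of 500 counts, and each library left out. Thinning to the smallest library, and removal of the length trend with and without the block, were chosen after seeing the data.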

Additional observations from a re-analysis of the deposited data

How the results depend on the processing

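With library totals alone, 16 Slc25 members were called higher and 2 lower, and 79 other members higher and 1 lower (of all genes 55.1% and 2.93%), and the log2 fold changes of Slc1a5, Slc25a39 and Slc29a1 reversed to 1.10, 1.04 and 0.55. The construction of this alternative, which leaves out the scaling between libraries, moves all genes together. With no filter, 0 Slc25 members were called higher and 4 lower, and 15 others higher and 7 lower (4.82% and 3.50% of all 25327 genes with any count, an unlike background). Of members with at least 500 counts, 0 Slc25 members were called higher and 4 lower, and 14 others higher and 11 lower. Of all genes the main fit called 11.0% higher and 12.4% lower. Thinning to the smallest library, chosen after seeing the data, left 5 other members called higher and 10 lower (of all genes 9.87% and 12.0%), and turned Slc22a3 to -0.0904 and Slc25a3 to -0.0414. Upper-quartile factors also turned Slc22a3 to -0.0898. As a ratio of variation B to variation A, the Slc25 share of counts was 2.02, reversed to 0.845 of protein-coding counts and 1.28 without rRNA and mitochondrial-genome genes. The share of the other members was 3.78, and 1.602 and 2.39 in the same alternatives. The cause was not tested.

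With the replicate block, 0 Slc25 members were called higher and 4 lower, and 8 other members higher and 7 lower, beside 7.40% and 7.90% of all genes (11.0% and 12.4% in the main fit). With the block and the length trend removed, chosen after seeing the data, 0 and 3 Slc25 members and 10 and 7 others were called, beside 6.71% and 8.55% of all genes. Same-numbered libraries did not deviate together (correlation -0.1 for A1 and B1, and -0.03 for A2 and B2), so the numbers were not read as pairs.

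Leaving out A1, A2 or A3 gave 0 to 2 Slc25 members called higher and 2 to 9 lower. Of the other members, 2 to 26 were called higher and 1 to 27 lower. Of all genes, 3.46% to 20.8% were called higher and 3.64% to 15.0% lower in these fits. The share ratios ranged from 1.91 to 2.19 (Slc25) and from 3.50 to 4.29 (others). Without B1 or B2 variation B has a lone library, assumed to vary like variation A. Of the 28 genes named by rule, Slc7a11 and Slc39a4 kept direction and call in all 16 alternatives, and Slc25a10 in 15. Slc39a4 passed the filter on low counts only through variation A, so its kept call is no separate result. Most other calls were lost with a library left out, and A3, with 1187117 counts, limits what low-count members can show.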
